A study of Mus musculus with 2 samples.

Results

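The expression of complement genes was examined in dorsal root ganglion (DRG) neuron preparations from mice given alum alone (the alum pool) or alum with keyhole limpet hemocyanin (the KLH pool). The members were the 9 genes C1qa, C1qb, C1qc, C3, C4b, C3ar1, Serping1, Cd55 and Cd59a, found as the rows whose gene symbol equals one of these names. They make up 10 of the 35034 transcript rows and 9 of the 24411 genes in the files. Male C57BL/6 mice (C57BL/6J in the study's methods) aged 6 to 8 weeks received 50% alum, an aluminium salt adjuvant, by intraperitoneal injection on day 0 and day 14. Mice of the KLH pool were given the same alum with 100 µg of KLH, a very large mollusc protein that is foreign to mice, and thoracic and lumbar DRGs were taken from both groups on day 28. The ganglia were dissociated with collagenase/dispase, enriched for neurons by centrifugation through albumin and depleted of B lymphocytes with beads. RNA from 10 mice per group was pooled into 1 library per group, and values are in TPM, transcripts per 1000000, a scale corrected for transcript length on which each library has the same sum. The control library is labelled both as naïve and as given alum alone, and is treated here as alum alone. With 1 library per group the spread between mice is unknown, immunization could not be tested, and no difference between the pools has a replicate check.

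Complement is a cascade of plasma proteins that marks targets for removal and can open pores in their membranes. In the classical pathway C1q binds antibody on its antigen, and its proteases C1r and C1s cleave C4 and C2 into an enzyme that cleaves C3, the protein on which all the pathways converge. Host cells carry inhibitors on their surface, and further inhibitors circulate in plasma. Most circulating complement is made in the liver, and in tissues macrophages are the best known source of C1q.

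The 3 inhibitors were abundant in both pools, while the components and the receptor were low. Cd55 encodes decay-accelerating factor, a surface protein that takes apart the enzymes that cleave C3 and C5. It reached 1652 TPM in the alum pool and 1479 TPM in the KLH pool. Cd59a encodes a surface inhibitor of the membrane attack complex, the pore that ends the cascade, and was at 185 and 177 TPM in the same order. Serping1, the gene of the plasma inhibitor of C1r and C1s, was at 66.7 and 57.4 TPM. Each of the 3 was above the study's detection threshold of 3 TPM in both pools, and all the other 6 members were below it in both.

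**Figure D1:**
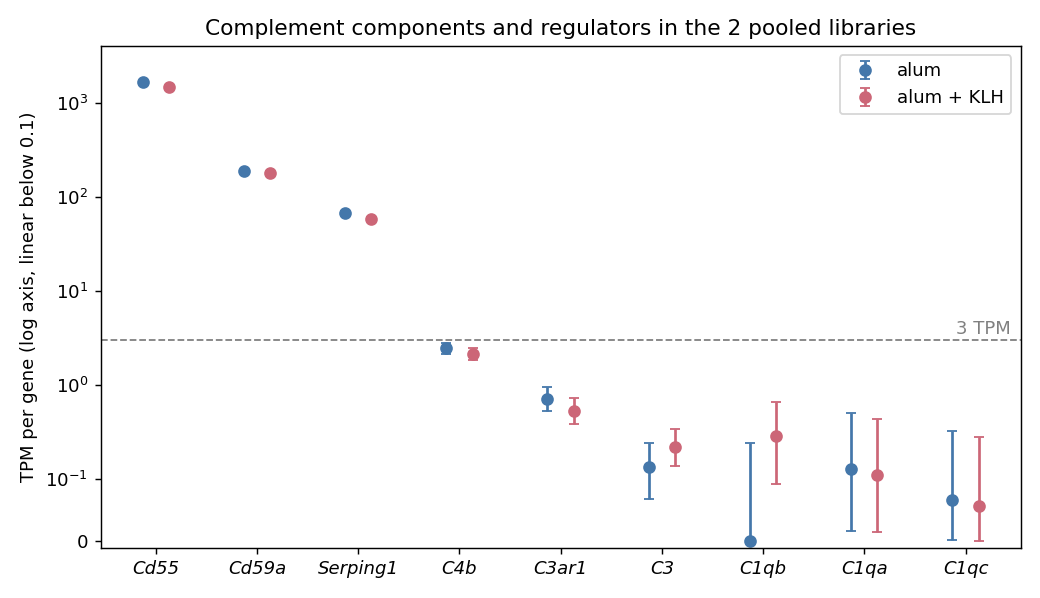
TPM per gene (log axis, linear below 0.1 TPM) for the 9 members in the alum (blue) and alum + KLH (red) libraries, 1 library each. Bars are 95% Poisson intervals of the estimated fragment numbers (for Cd59a those of its main transcript) and cover counting error only; Cd55, Cd59a and Serping1 lie above the dashed line at 3 TPM and the other 6 members below it.

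Cd55 held rank 46 of the 24411 genes in the alum pool and rank 58 in the KLH pool. Its single row made up 0.165% and 0.148% of all TPM. For scale, the neuronal tubulin gene Tubb3 was at 685 and 640 TPM and the neuronal hydrolase gene Uchl1 at 962 and 905 TPM, while Nefl was higher than Cd55 at 5259 and 5048 TPM. Cd59a held rank 1147 and rank 1220, and was exceeded by 4.69% and 4.99% of genes. Serping1 was exceeded by 12.3% and 13.8% of genes. Within a library Cd55 was 8.91 times as high as Cd59a in the alum pool and 8.35 times in the KLH pool, and Cd59a was 2.78 and 3.09 times as high as Serping1.

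The low members were ordered C4b, then C3ar1, in both pools. C4b encodes the mouse C4 that is cleaved in the classical and lectin pathways, and was at 2.44 TPM in the alum pool and 2.12 TPM in the KLH pool. C3ar1, the receptor for the C3a fragment that is released when C3 is cleaved, was at 0.70 and 0.53 TPM. C3 itself was at 0.133 and 0.218 TPM. The C1q chains were at a similar or lower level. C1qa was at 0.128 and 0.110 TPM, C1qc at 0.066 and 0.057 TPM, and C1qb was listed at 0 in the alum pool and at 0.282 TPM in the KLH pool. C1qb was the lowest member in the alum pool and the sixth, above C3, in the KLH pool, and the order of the other 8 members was the same in both.

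The files hold no read counts, but low TPM values of genes with a single row fell in steps that depend on transcript length. Each step corresponds to 1 sequenced fragment, a pair of reads. With lengths from the GENCODE annotation, 76.4% of 983 rows with up to 4 fragments in the alum pool and 76.9% of 969 in the KLH pool lay within 0.1 of a whole number of fragments, where values spread evenly would give 20%. The step size and a length offset were set to give the most whole values. The steps amounted to about 46900000 and 55100000 assigned fragments on the rows with a known length, which hold 97.3% and 97.1% of TPM. These are estimates, and the intervals derived from them cover counting error only, since fragments copied by PCR are not independent molecules.

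**Figure D2:**
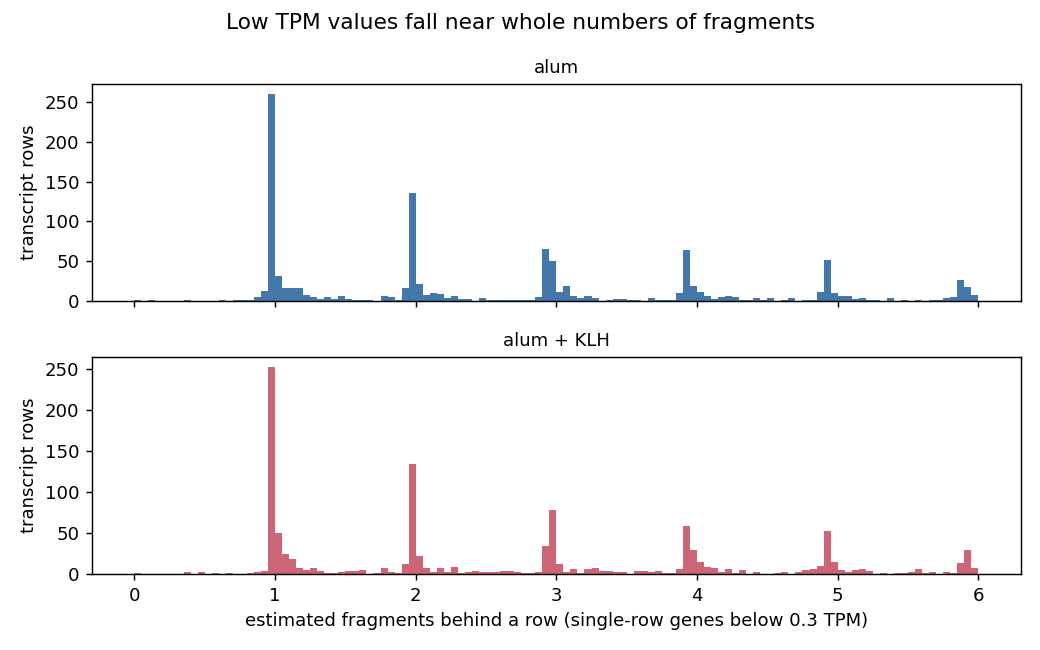
Number of transcript rows against the estimated number of fragments behind the row, for genes with a single row below 0.3 TPM and a length of 1000 to 6000 bases in the alum (top) and alum + KLH (bottom) libraries. The bars stand in peaks at or just below whole numbers of fragments from 1 upward in both libraries, with a larger gap at the higher numbers.

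On this scale the C1q values rested on very few fragments. C1qa corresponded to 2 fragments in each pool and C1qc to 1 in each. Their ratios of alum + KLH to alum, 0.863 for both genes, fell in the commonest range of this ratio among 201 low rows of similar length, 0.86 to 0.88, where equal numbers of fragments lie. C1qb corresponded to 0 fragments in the alum pool, which allows a level of up to 0.195 TPM (3 fragments, a one-sided limit), and to 5 fragments in the KLH pool, with a 95% Poisson interval of 0.091 to 0.653 TPM. The two-sided 95% Poisson interval of the alum pool, which is wider than the one-sided limit, reaches 0.239 TPM and overlapped it. Summed over the 3 chains, which assemble into 1 protein, C1q was at 0.194 and 0.449 TPM. Any difference in C1q was not distinguishable at this depth for C1qa and C1qc, and for C1qb it amounted to 5 fragments. C3 rested on 11 fragments (95% Poisson interval 0.068 to 0.242 TPM) and 21 fragments (0.136 to 0.337 TPM), and the intervals overlapped. C3ar1 rested on 48 and 42 fragments and C4b on 208 and 212, so that fragments of both were counted in each pool although the level was below 3 TPM. The intervals of C4b were 2.12 to 2.80 TPM and 1.84 to 2.43 TPM. Cd55 rested on about 64281 and 67303 fragments and Serping1 on 1765 and 1771.

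The positions below are those of the GENCODE M21 annotation of GRCm38, the assembly that mm10 also names. Cd55 lies on chromosome 1 (chr1:130439027-130462744, minus strand) in 10 exons, and Serping1 on chromosome 2 (chr2:84765387-84775444, minus strand), its transcript in 8 exons. Cd59a lies on the plus strand of the same chromosome (chr2:104095801-104115354). C1qb, C1qc and C1qa lie next to each other on the minus strand of chromosome 4 (chr4:136880129-136886187, chr4:136889804-136893065 and chr4:136895917-136898803), each with 3 exons. C4b (chr17:34728380-34743882) and C3 (chr17:57203970-57228136) are on chromosome 17 with 41 exons each, and C3ar1 is on chromosome 6 (chr6:122847138-122856161) with 2 exons. A noncoding gene on the opposite strand, Gm16083, overlaps 102 exon bases of Cd55, or 4.03% of its transcript, and no other annotated gene shared exon bases with a member transcript. The library kit keeps the strand, but whether the quantification used it is not given in the sources used here.

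Cd55, Cd59a and C4b each have a close copy nearby, and reads from stretches that the copies share are divided by kallisto, the program the authors used. Of the 31-base words of the Cd55 transcript, 21.2% occur in transcripts of other genes, most of them in Cd55b. The share was 10.2% for the main Cd59a transcript, mostly with Cd59b, and 48.8% for C4b, with C4a. It was 0% for C1qa, C1qb, C1qc, C3 and Serping1, and 0.493% for C3ar1. Over their aligned bases the pairs were 91.3% identical for Cd55 and Cd55b, 84.9% for Cd59a and Cd59b, and 96.1% for C4b and C4a, which has no annotated coding sequence in GENCODE M21 and was represented by its longest transcript. The longest run without a difference was 198 bases, 47 bases and 433 bases in the same order. The stretches shown next are examples of where the copies are alike and where they differ, 90 bases each from the reference, 5′ to 3′ on the gene's strand. This stretch of Cd55 exon 2 (chr1:130461867-130461956, minus strand) has 0 differences from Cd55b (chr1:130422160-130422249), so that a read within it fits both genes:
Cd55 and Cd55b: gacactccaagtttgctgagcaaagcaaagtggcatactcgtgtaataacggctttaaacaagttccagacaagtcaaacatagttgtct

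The pairs can be told apart elsewhere. The following stretches have the most differences of any 90 aligned bases without a gap, and capitals mark the bases that differ within a pair. For Cd55 (exons 8 to 10, chr1:130440342-130448358, minus strand) and Cd55b (exons 8 to 10, chr1:130388692-130410659) there were 25 differences. The stretch is near the end of the coding sequence, where the protein of Cd55 carries the signal for its lipid anchor and that of Cd55b a membrane-spanning segment. For Cd59a (exon 4, chr2:104113990-104114079, plus strand) and Cd59b (exon 4, chr2:104084437-104084526) there were 32, and for C4b (exon 21, chr17:34735430-34735519, minus strand) and C4a (exon 21, chr17:34816086-34816175) there were 14:
Cd55: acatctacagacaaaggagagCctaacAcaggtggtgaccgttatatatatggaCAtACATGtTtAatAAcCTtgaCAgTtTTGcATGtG
Cd55b: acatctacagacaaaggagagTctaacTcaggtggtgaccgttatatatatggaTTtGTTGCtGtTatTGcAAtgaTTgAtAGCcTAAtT
Cd59a: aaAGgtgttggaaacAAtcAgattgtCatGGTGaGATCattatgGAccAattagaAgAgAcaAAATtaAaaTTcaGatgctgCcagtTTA
Cd59b: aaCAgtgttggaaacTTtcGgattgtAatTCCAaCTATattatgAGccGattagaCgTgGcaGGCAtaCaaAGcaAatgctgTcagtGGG
C4b: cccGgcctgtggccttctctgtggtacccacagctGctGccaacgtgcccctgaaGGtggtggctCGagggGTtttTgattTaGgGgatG
C4a: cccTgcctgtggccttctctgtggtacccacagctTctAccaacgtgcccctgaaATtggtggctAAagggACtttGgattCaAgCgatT

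In every pair nearly all of the signal was on the member and little on its copy. Cd55b was at 4.49 TPM in the alum pool and 5.34 TPM in the KLH pool, so Cd55 was 368 and 277 times as high. Cd59b was at 2.04 and 2.81 TPM, and Cd59a was 90.8 and 63.1 times as high. C4a was at 0.060 and 0.038 TPM, 5 and 4 fragments. Cd59a has 2 rows with the same coding sequence, of which NM_007652, with 4 exons, held 97.7% of the gene's TPM in each pool (181 and 173 TPM). NM_001111060, with 5 exons, was at 4.27 and 4.01 TPM. The other 8 members have 1 row each.

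The pools were compared by a log2 ratio, with 1 TPM added to each value and the KLH pool as numerator. The added 1 TPM makes the ratios of low genes too small. For Cd55 this ratio was -0.16, or 10.5% lower TPM in the KLH pool, beside a standard deviation (SD) of 0.16 over the 500 genes closest to it in level. Serping1 had a ratio of -0.21, or 14% lower TPM, and the SD of its neighbours was 0.13. Cd59a had a ratio of -0.07 against an SD of 0.16. The SD describes how far genes of similar level differed between these 2 libraries and tests nothing. The 95% Poisson intervals of the pools did not overlap for Cd55 (1639 to 1665 TPM and 1468 to 1490 TPM) or Serping1 (63.6 to 69.9 TPM and 54.7 to 60.1 TPM), and they overlapped for the main row of Cd59a (176 to 187 TPM and 168 to 178 TPM). Such intervals also did not overlap for 36.4% of the 13575 transcript rows with a known length that passed 3 TPM in one pool or both, and for 51.8% of the 3665 rows with a mean above 50 TPM, so that the gap for Cd55 and Serping1 is no result about these genes. Fewer cells of a type and less RNA per cell cannot be told apart in such pools.

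None of the 3 members above 3 TPM was at least 1.5-fold apart between the pools (0 of 3), where 2.56% of the 11648 genes that passed 3 TPM in one pool or both were. At least 2-fold apart were also 0 of 3, against 1.64% of these genes, and among the 3735 genes with a mean above 50 TPM, the level of the 3 members, 0.616% were at least 1.5-fold apart. Of the 4 member transcript rows above 3 TPM, 0 were at least 1.5-fold apart, against 8.51% of such rows. These shares are so low that 0 of 3 is no result about the members. The median ratio of the 3 members was -0.16 and that of the 11648 genes was -0.02. TPM was lower in the KLH pool for all 3. It was also lower for 6 of 7 neuronal, 5 of 5 satellite glia and 3 of 5 Schwann cell marker genes (lists below). Among the other markers it was lower for 2 of 3 fibroblast, 2 of 2 macrophage and 1 of 1 endothelial genes. These counts cover markers above 3 TPM in one pool or both. Of 13 further complement genes above 3 TPM, 6 were lower and 7 higher. The share over all genes was not counted, so the shared direction is no result about the members. For the members below 3 TPM the ratios were -0.14 for C4b (SD of neighbours 0.55), -0.16 for C3ar1 (0.26), 0.10 for C3 (0.18), -0.02 for C1qa (0.16) and -0.01 for C1qc (0.12), each smaller than the SD of its neighbours. C1qb, listed at 0 in 1 pool, is given no fold.

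**Figure D3:**
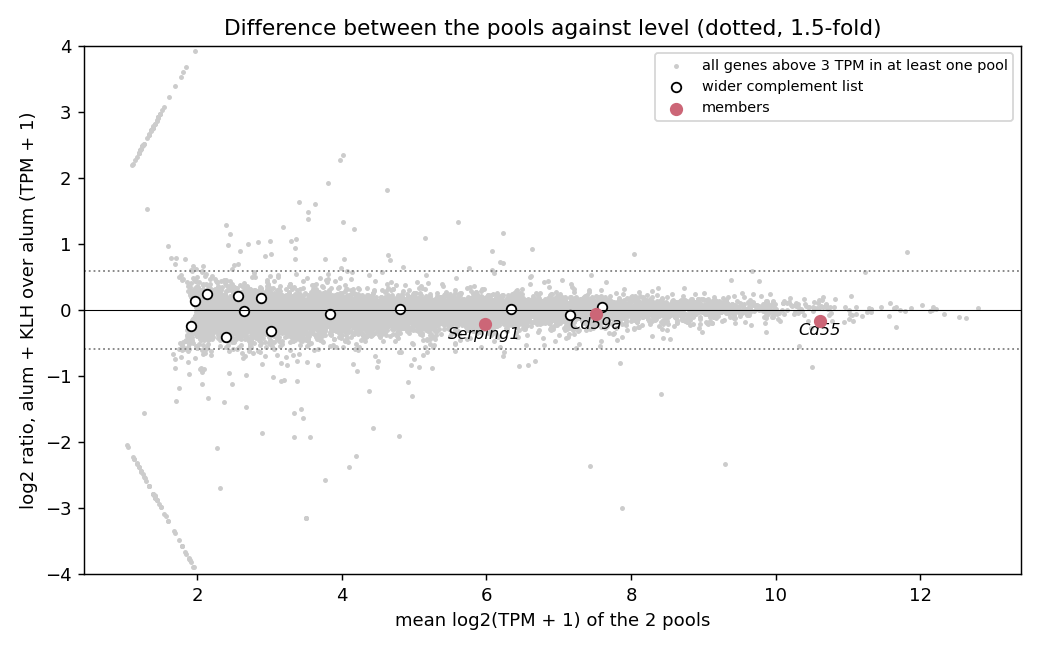
Log2 ratio of alum + KLH over alum (TPM + 1) against the mean log2(TPM + 1) of the 2 libraries, with each grey point a gene above 3 TPM in one or both pools, red points the 3 members that passed and open circles the 13 such genes of the wider complement list. All red points and open circles lie between the dotted lines at 1.5-fold; 15 genes lie outside the axis.

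The wider pathway was read from a list of 49 further complement genes. Of these, 11 were above 3 TPM in both pools and 36 were below it in both. With the members included, 10 of 18 regulators passed the threshold in both pools, against 2 of 30 components and proteases and 2 of 10 receptors and binding proteins. The regulators made up 92.5% of all TPM of the 58 genes in the alum pool and 92.3% in the KLH pool, and Cd55 alone 68.2% and 66.3%. Across all genes, 46.9% were above 3 TPM in the alum pool and 46.3% in the KLH pool, counted in each pool separately. The 55.6% of regulators above it in both pools is near these shares, so that their count is no result about regulators. For the 13 further genes that passed 3 TPM in one pool or both, the log2 ratios ran from -0.40 to 0.24, and 0 of the 13 were at least 1.5-fold apart, which at the 2.56% of all such genes is no result about the list.

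Besides Cd55 and Cd59a, the regulators included Clu at 190 TPM in the alum pool and 197 TPM in the KLH pool. Clu encodes clusterin, a secreted chaperone that binds the forming attack complex. Cr1l, which encodes Crry, the widespread mouse surface inhibitor of C3 cleavage, was at 79.2 and 80.5 TPM, so that Cd55 was 20.9 and 18.4 times as high. Susd4, a membrane protein with complement control repeats, was at 26.7 and 26.9 TPM. Csmd1, a very large neuronal membrane protein with such repeats, was at 13.5 and 13.0 TPM, and its relative Csmd3 at 2.75 and 3.10 TPM. Cd46, a membrane cofactor for cleaving C3b, was at 5.90 and 6.83 TPM. The other 7 regulators of the wider list were below 3 TPM in both pools, with Vtn, the vitronectin gene, at 0.038 and 0.032 TPM.

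Few of the genes counted as components and proteases passed the threshold. C1s1, one of the proteases that Serping1 inhibits, was at 3.09 TPM in the alum pool and 2.47 TPM in the KLH pool, and its partner C1ra at 2.04 and 1.67 TPM. Masp1, a protease of the lectin pathway, was at 3.03 and 3.77 TPM. Colec12, a scavenger receptor of the collectin family that the list places with the classical and lectin genes, was at 5.32 and 5.24 TPM. The 3 alternative pathway genes reached at most 1.65 TPM in the alum pool and 1.71 TPM in the KLH pool, with Cfd, the gene of factor D, listed at 0 in both. The 7 terminal genes, from C5 (Hc) to C9, reached at most 1.56 and 1.55 TPM. Among receptors and binding proteins, C1qbp, a mostly mitochondrial protein that binds C1q, was at 146 and 138 TPM. Cd93, a surface protein of endothelial and myeloid cells, was at 5.08 and 3.60 TPM, the lowest ratio of the list (-0.40). The C5a receptor genes C5ar1 and C5ar2 stayed at 0.77 and 0.49 TPM and at 1.22 and 1.14 TPM.

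**Figure D4:**
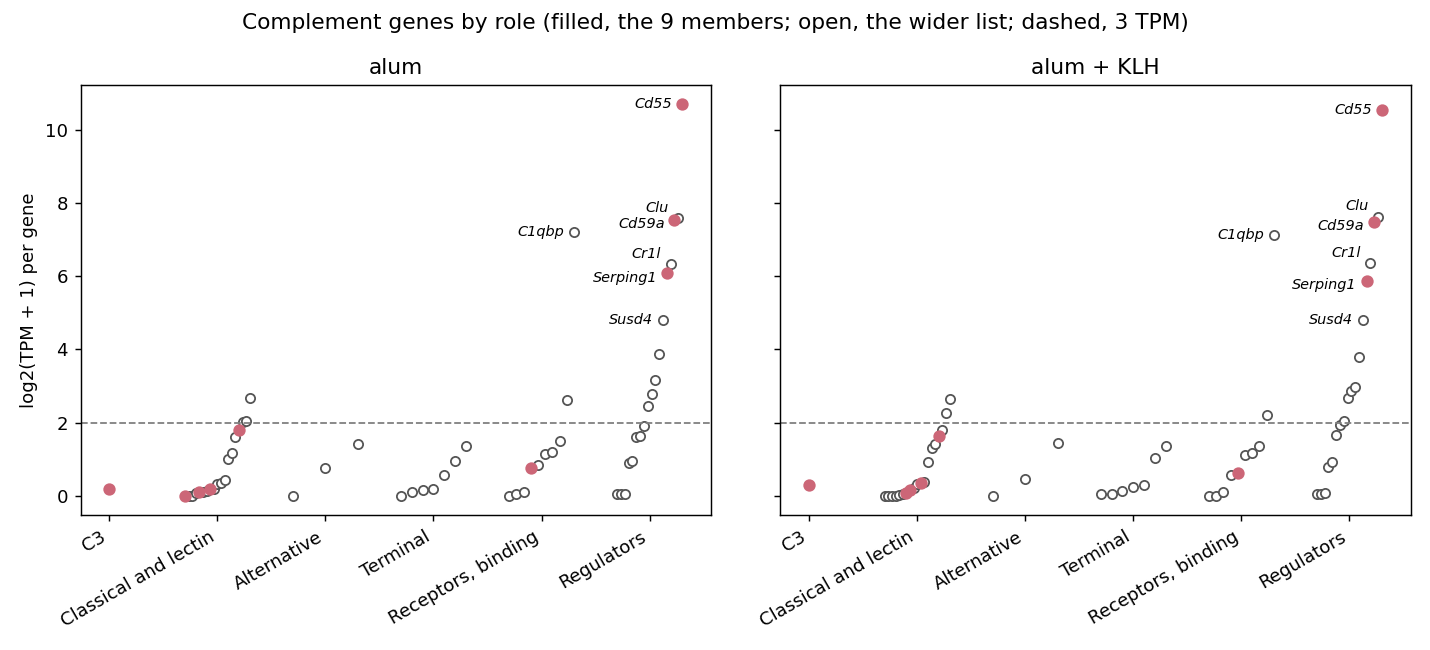
Log2(TPM + 1) per gene in the alum (left) and alum + KLH (right) libraries for the 9 members (filled) and the 49 genes of the wider list (open), arranged by role and sorted within each role, with a dashed line at 3 TPM. The regulators reach the highest values in both libraries, led by Cd55, and no alternative or terminal gene passes the line.

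The labelled tissue was checked against marker genes of 8 cell types, and these levels are given beside the members because the preparations hold more than neurons. All 7 neuronal markers passed 3 TPM in both pools. Their summed level was 11568 TPM in the alum pool and 11400 TPM in the KLH pool, and their median 685 and 640 TPM. Of the 6 satellite glia markers 5 passed (summed level 1646 and 1562 TPM), and of the 7 Schwann cell markers 4 (summed level 1864 and 1833 TPM). Which of these cells carried the transcripts of Cd55, Cd59a and Serping1 cannot be told apart in pooled RNA. Beside the low C1q and C3ar1, 2 of 14 macrophage markers passed, Cd14 at 3.93 and 3.79 TPM and Lyz2 at 3.90 and 3.86 TPM. The list summed to 18.8 and 18.5 TPM. Its lowest marker in both pools, the macrophage growth factor receptor Csf1r, was at 0.113 and 0.167 TPM. Beside Serping1, 3 of 6 fibroblast markers passed, with a summed level of 88.1 and 88.4 TPM led by Dcn at 63.8 and 62.6 TPM, while the 5 endothelial markers summed to 10.2 and 7.24 TPM. Their part in the level of Serping1 was not tested. Of the 3 hepatocyte markers, Alb and Apoa1 were listed at 0 in both pools and Ttr was at 0.50 and 0.43 TPM. The 3 B lymphocyte markers summed to 0.70 and 0.19 TPM.

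**Figure D5:**
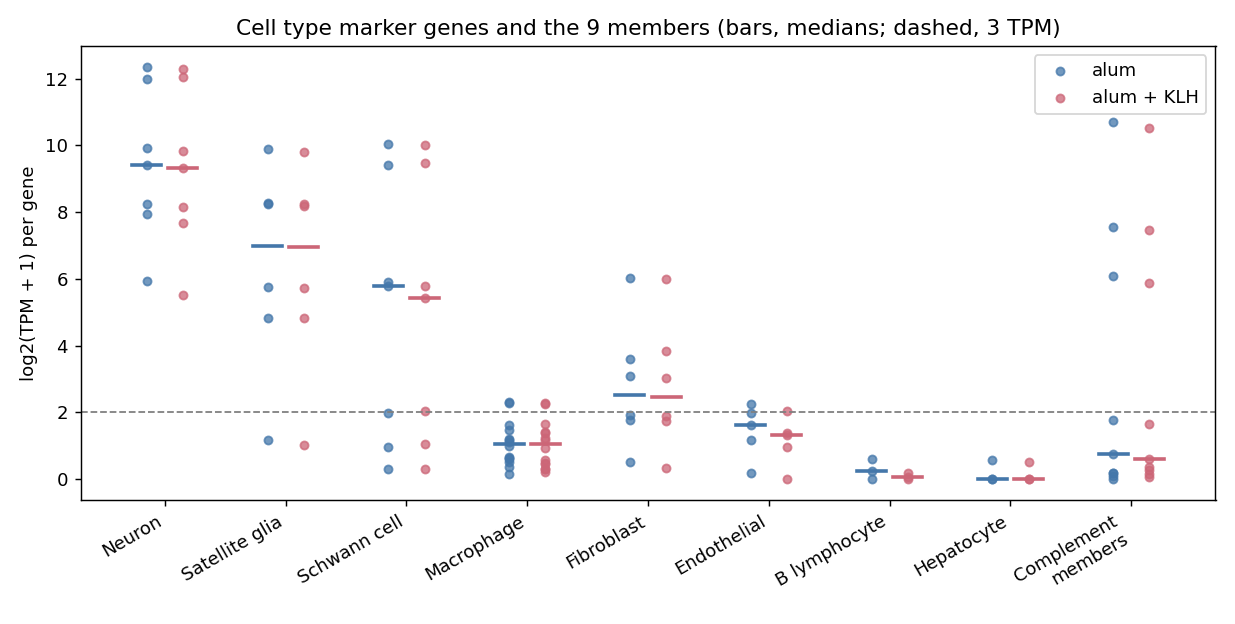
Log2(TPM + 1) per gene for the markers of 8 cell types and for the 9 complement members in the alum (blue) and alum + KLH (red) libraries, with bars at the medians and a dashed line at 3 TPM. The medians of the neuronal and glial markers stand above those of the macrophage, endothelial, B lymphocyte and hepatocyte markers, and the complement members spread from 0 to 1652 TPM (Cd55), below the highest neuronal marker, Nefl.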

How the data were processed

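RNA-seq was analysed from 2 libraries, 1 per group, each from the pooled DRG neuron preparations of 10 mice. By the labels and the study's methods, the authors prepared stranded mRNA libraries, trimmed paired-end reads with cutadapt and assigned them to annotated mm10 transcripts with kallisto, and the versions are not given in the sources used here. The authors deposited TPM values per RefSeq transcript, with no counts. The members, gene lists and tests were chosen with earlier results of these data known.

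TPM was summed over the rows of a gene. Genes that passed 3 TPM, the study's threshold, in one pool or both entered comparisons, with a pseudocount of 1 TPM. All members were named, and of the wider list every gene that did so except 1 that is not reported here, and a few others were named after their values were seen (C1ra, Cfd, C5ar1, C5ar2, Vtn). No test across mice was possible. Fragments per value were estimated, after the data had been seen, from the steps of low TPM values (TPM times length less an offset of 140 bases in the alum library and 155 in the alum + KLH library), rounded, and given exact Poisson intervals. Rows were matched to GENCODE M21 (GRCm38) by RefSeq identifier without its version, so lengths can differ from those the authors used. Alternatives were other thresholds (1 and 10 TPM) and pseudocounts (0.1 and 5 TPM), the highest row per gene, scaling to Hprt or to the median gene, removal of 5115 rows with noncoding identifiers, and sums with the close copies. Calculations used Python 3.11.15, numpy 2.4.6 and pandas 2.3.3, plots used matplotlib 3.10.9, and the ratio calculation was tested on simulated data.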

Additional observations from a re-analysis of the deposited data

How the results depend on the processing

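The number of members above the threshold was 3, and it was within 1.5 times of this with a threshold of 1 TPM (4 members, with C4b) or 10 TPM (3). Of all 58 complement genes, 14 were above 3 TPM in both pools, against 26 at 1 TPM and 8 at 10 TPM. The number of members at least 1.5-fold apart was 0 under all alternatives run. It was counted among the 3 members above 3 TPM, and among all 9 only with a pseudocount of 1 TPM, which keeps the ratios of low members small. For the 3 members above 3 TPM, all 20 alternative log2 ratios moved by less than the SD of genes of similar level. They ran from -0.30 to -0.20 for Serping1, from -0.24 to -0.15 for Cd55 and from -0.15 to -0.06 for Cd59a. Hprt scaling, which shifts all genes by -0.08, gave the low end. This outcome was nearly fixed in advance. Pseudocounts matter little at these levels, the highest row repeats the total of a gene with a single row, and scaling shifts all genes by the same amount. The log2 ratio of summed C1q was 0.28 with a pseudocount of 1 TPM (SD of genes of similar level 0.20), 0.90 with 0.1 TPM and 0.069 with 5 TPM. This spread follows from values below the pseudocount. The sum was higher in the KLH pool only through the 5 fragments of C1qb, since C1qa and C1qc had equal fragment numbers in the pools. Over all 9 members, 54 of 57 alternative ratios moved by less than the SD and 3, those of C1qb and C3 with another pseudocount, by more. The 54 include alternatives that repeat the main value for members with a single row, so the count is no measure of robustness. Depth limits the C1q chains, at 0 to 5 fragments per pool, and 1 library per group limits every difference.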

Other observations

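The C1q domain also occurs in secreted proteins of neurons that are no part of complement. Of the 4 genes C1ql1 to C1ql4, C1ql3 was above 3 TPM, at 11.4 TPM in the alum pool and 14 TPM in the KLH pool (log2 ratio 0.27, SD of genes of similar level 0.22), while the other 3 reached at most 0.208 TPM. C1ql3, which encodes a protein of synapses, was thus above each of the complement C1q chains in both pools.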
